A study of Mus musculus with 3 samples.

Results

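The 39 genes described here encode the machinery that copies DNA in S phase and the factors that start it. They were listed by function, and a gene was measured where a probe's transcript name matched a RefSeq transcript of that gene. Of the 39 genes, 35 had a matching probe, 42 probes in all, among 41174 probes on the array. All 35 passed the filter on dim probes and were among the 18542 genes and transcripts tested. Orc1, Gins1, Gins2 and Rfc3 were not analysed here.

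The samples were cultures of primary fibroblasts (connective tissue cells) from mouse embryos at E12.5, untreated and kept in DMEM with 10% serum. The series compares cells without SA1, a subunit of cohesin, with wild-type cells. RNA of a sample labelled SA1-null (Cy3) and of a sample labelled wild type (Cy5) shared each of 3 two-colour Agilent arrays, named as biological replicates. The dyes were never swapped, and genotype therefore cannot be told apart from dye. The labels do not say whether replicates came from separate embryos or which part of the gene was disrupted. All ratios are log2(Cy3/Cy5), above 0 where the sample labelled SA1-null was the brighter, and run opposite to the authors' deposited values. Stag1, which encodes SA1, went against the labels: its ratios were 3.34, 3.74 and 3.47, higher in the sample labelled SA1-null (mean 3.52 ± 0.21, SD, n = 3, limma adjusted p = 0.0278). That is its brightest probe. Another of its 4 probes was at 1.22, 0.18 and 0.36, and the remaining probes were between 1.57 and 3.89. The sources do not place the probes relative to the disrupted part. Every direction below is therefore given by label only, and turns over if the labels of the channels are exchanged.

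Array 1 lay on a slide of its own and was read with another version of the scanner software, and arrays 2 and 3 shared a slide. Between 60.6% and 67.0% of probes were well above background in each channel. Of the Y chromosome genes Ddx3y, Eif2s3y, Kdm5d and Uty, each was well above background in both channels of array 1 and in neither channel of arrays 2 and 3. The X chromosome gene Xist was well above background in neither channel of array 1, in Cy5 only on array 2, and in both channels of array 3. The fibroblast markers were present, with 17 of 17 tested, and their median ratios were 1.27, 0.10 and 0.78 on arrays 1 to 3. In limma 0 of the 17 passed (8 at an unadjusted p under 0.05), and those with the smallest p were Pdgfrb (mean 0.85), Pdgfra (0.79) and Col3a1 (1.17). Macrophage and blood cell markers were lower in the channel labelled SA1-null on each array: 20 of 22 were tested, with median ratios of -3.23, -2.52 and -2.70. Of these 12 passed as lower in limma, from Cd14 at a mean of -1.97 to Ctss at -4.15, the others being Lyz1, Tyrobp, Msr1, Fcgr3, Ptprc, Cd52, Trem2, Lyz2 (measured on 2 arrays), C1qc and Fcer1g. In bulk RNA, fewer cells of a type and less RNA per cell cannot be told apart. The part of these other markers in the results below was not tested.

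Before S phase, the origin recognition complex with Cdc6 and Cdt1 loads the Mcm2 to Mcm7 helicase ring on DNA, a step called licensing. Cdc45 and the GINS complex then turn the ring into a working helicase, primase and the polymerases copy the strands, and the Pcna clamp holds the polymerases on DNA. Transcription of most of these genes rises at the entry to S phase through E2F factors, and the genes are widely used as a signature of cycling cells.

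E2F sites are a sequence feature these genes are known for, and the members' promoters were searched for it. RefSeq promoter windows (assembly GRCm38.p6, 250 bases before to 50 after the start) were at hand for 30 of the 35 tested members. The letters TTTCCCGC, TTTCGCGC, TTTGCCGC or TTTGGCGC, on either strand, were in 12 of these 30 genes (40.0%), against 4.45% of the 9660 tested genes with a window and 2.605% of all 27025 genes with a window. They were in 1 of 32 mitotic genes, and in 8 of 32 genes (25.0%) of a list of other replication genes, described below. The letters TTTGAA, a core of the CHR element of mitotic promoters, were in 4 of 30 members and 23 of 32 mitotic genes, against 14.6% of tested genes. CCAAT was in 17 of 30 members and 25 of 32 mitotic genes, against 43.1% of tested genes. In the other replication genes, TTTGAA was in 5 of 32 and CCAAT in 15 of 32. All letters were searched on both strands, and matches to the 4 E2F versions can overlap.

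Promoters of licensing genes and of Uhrf1 show how the letters lie. Each line is a stretch upstream of the start, read 5′ to 3′ along the gene, with the E2F letters in capitals: Mcm6 at chr1:128359741-128359820 (minus strand), Mcm5 at chr8:75109322-75109401 (plus), Mcm7 at chr5:138172005-138172084 (minus), Cdc6 at chr11:98907977-98908056 (plus) and Uhrf1 at chr17:56304092-56304171 (plus).
Mcm6: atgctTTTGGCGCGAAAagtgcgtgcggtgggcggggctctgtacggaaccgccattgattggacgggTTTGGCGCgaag
Mcm5: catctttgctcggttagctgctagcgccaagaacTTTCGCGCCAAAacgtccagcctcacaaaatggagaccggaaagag
Mcm7: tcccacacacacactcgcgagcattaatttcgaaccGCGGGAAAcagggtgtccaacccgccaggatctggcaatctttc
Cdc6: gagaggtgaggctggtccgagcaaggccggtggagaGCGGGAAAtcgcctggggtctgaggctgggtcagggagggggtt
Uhrf1: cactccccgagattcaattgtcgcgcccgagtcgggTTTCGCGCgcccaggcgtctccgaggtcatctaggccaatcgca
The Mcm6 stretch held 3 matches and the Mcm5 stretch 2, each with a pair that overlaps on opposite strands. The ratios of members with and without the letters were not tested against each other: medians on arrays 1 to 3 were 0.26, -0.14 and -0.39 for the 12 with them, and 0.29, -0.17 and -0.34 for the 18 without. A match is a description of letters, not of a bound site.

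The replication genes did not share a direction over the 3 pairs. Most were above 0 on array 1, and most were below 0 on arrays 2 and 3, though 10 members were above 0 on array 3. On array 1, 32 of 35 members were above 0 (higher in the channel labelled SA1-null), against 46.4% of all genes, with a median of 0.33. On array 2, 31 of 35 were below 0, against 53.2% of all genes, with a median of -0.17. On array 3, 25 of 35 were below 0, against 53.5% of all genes, with a median of -0.43. The medians of all genes were -0.04, -0.01 and -0.03. With median centring in place of loess, 10 members were above 0 on array 1 and 35 below 0 on array 2, and the members' medians were -0.34 and -0.68. The medians of all genes were then -0.55 and -0.36, and 28 members lay above that of array 1 and 34 below that of array 2.

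The sizes differed between pairs as well. Past 1.5-fold higher on array 1 were 9 of 35 members, against 10.6% of all genes. Past 1.5-fold lower were 1 of 35 on array 2, against 3.39% of all genes, and 12 of 35 on array 3, against 12.0%. The order of signs that was above 0 on array 1 and below 0 on arrays 2 and 3 was found in 18 of 35 members, against 10.6% of all genes. Below 0 on all 3 arrays were 3 members, against 19.1%, and above 0 on all 3 were 0, against 13.2%. The 3 are Pcna, Rpa2 and E2f1 at its brightest probe. In the authors' deposited values, turned to the same direction, these probes of Rpa2 and E2f1 were above 0 on array 1 (0.17 and 0.11). Pcna was there at -0.02. Across the 35 genes, which are not independent, the ratios of arrays 1 and 2 had a Pearson correlation of 0.21, those of arrays 1 and 3 of -0.27, and those of arrays 2 and 3 of -0.29. Over all genes the same correlations were 0.37, 0.27 and 0.47.

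**Figure D1:**
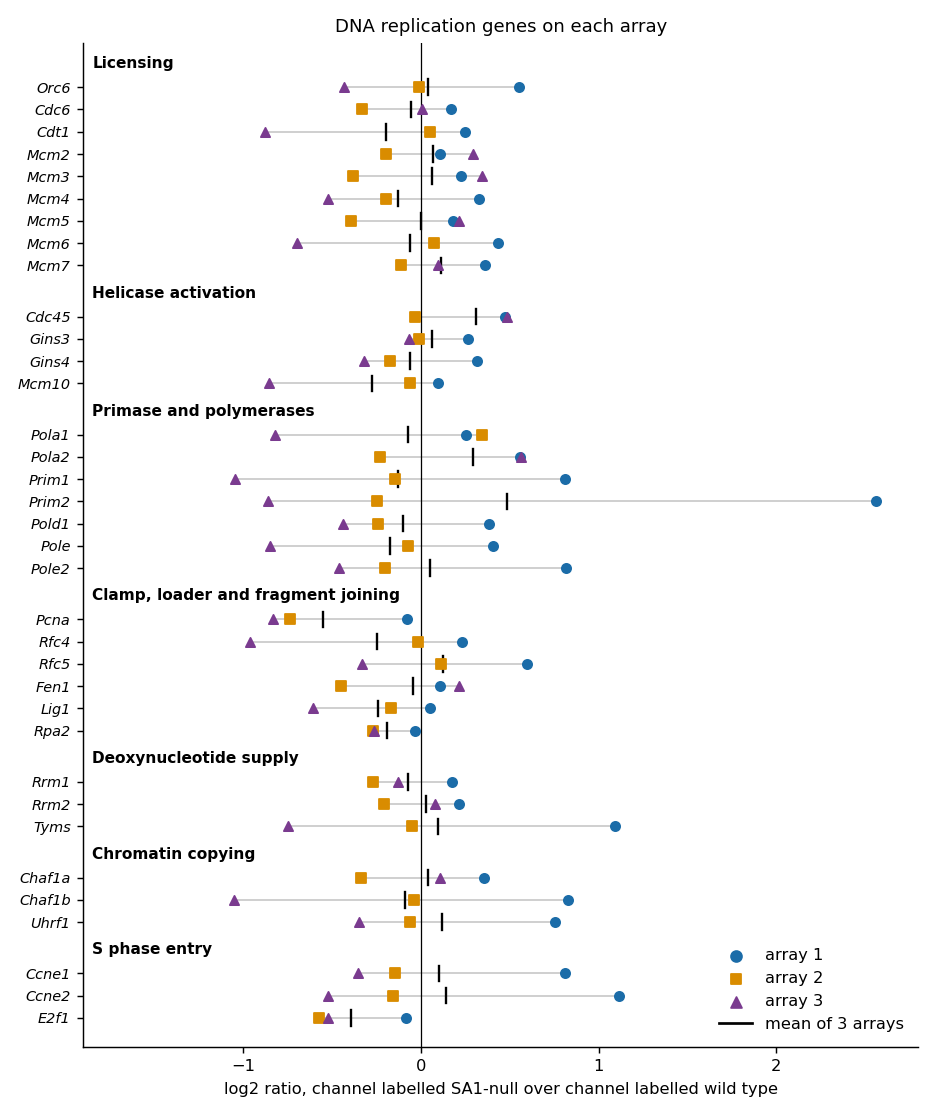
Log2 ratio of each of the 35 measured replication genes (rows, grouped by role) on array 1 (circles), array 2 (squares) and array 3 (triangles), with the mean as a black bar. The circles lie right of 0 for 32 genes and the squares left of 0 for 31, and Prim2 on array 1 stands apart at 2.56.

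No member passed the test over the 3 arrays. Of the 18542 genes tested with limma, 58 passed (0.313%), and 0 of the 35 members did, with a lowest adjusted p of 0.663 for Pcna. At an unadjusted p under 0.05 in limma, 1 of 35 members was found, Pcna, against 7.50% of all genes. The median of the members' mean ratios was -0.04, against -0.02 for all genes, with 17 members above 0 and 18 below. The test's 95% intervals show what these arrays leave possible: -0.50 to 0.50 for Mcm5 and -0.39 to 0.45 for Rrm2, but -1.33 to 2.30 for Prim2. With 3 pairs, a test that only turns signs cannot go below a two-sided p of 0.25, so the test rests on the spread limma shares between genes.

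In the licensing group, the helicase ring genes split on array 3. Mcm2 (0.11, -0.20 and 0.29 on arrays 1 to 3), Mcm3 (0.22, -0.38 and 0.34), Mcm5 (0.18, -0.39 and 0.22) and Mcm7 (0.36, -0.11 and 0.10) were above 0 on arrays 1 and 3 and below 0 on array 2. Mcm4 was at 0.33, -0.20 and -0.52, and Mcm6 at 0.44, 0.07 and -0.69. Each of these genes was read by 1 probe. For genes with several probes, the median range between probes on array 3 was 0.38, as described below. A difference between subunits there cannot be told apart from a difference between probes. The means of these 6 genes lay between -0.13 and 0.11. Mcm7, among the 8 members with the highest means, was at 0.11 ± 0.24 (SD, n = 3, limma adjusted p = 0.871).

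The loading factors varied in the same way. Orc6, a subunit of the origin recognition complex, was at 0.55, -0.01 and -0.43. Cdt1, which brings the ring to origins, was at 0.25, 0.05 and -0.88 (mean -0.19 ± 0.60, SD, n = 3, limma adjusted p = 0.864). Cdc6, the loading ATPase, was at 0.17, -0.33 and 0.00 at its brightest probe. Its other probe was at 0.04, -0.18 and -1.08, so the Cdc6 probes lay 1.09 apart on array 3 and 0.13 and 0.15 apart on arrays 1 and 2.

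Of the factors that switch the helicase on, Cdc45 was at 0.47, -0.03 and 0.48, and its mean of 0.31 ± 0.29 (SD, n = 3, limma adjusted p = 0.711) was the next highest after Prim2. The GINS subunits Gins3 (0.27, -0.01 and -0.07) and Gins4 (0.31, -0.17 and -0.32) were nearer 0 than Cdc45 on arrays 1 and 3, and Gins4 was farther from it on array 2. Mcm10, which helps to open the DNA, was at 0.10, -0.06 and -0.86 (mean -0.27 ± 0.51, limma adjusted p = 0.768).

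Prim2, the large subunit of primase, gave the widest spread of any member. It was read by 1 probe, printed in 1 spot per array. Corrected signals of its probe on arrays 1 to 3 were 1766, 1851 and 1484 in the channel labelled SA1-null and 299, 2197 and 2696 in the channel labelled wild type. These signals compare channels within an array only. On the common scale used below, they were 1106, 2339 and 1662 (label SA1-null) and 187, 2776 and 3019 (label wild type). The sample labelled wild type on array 1 was thus low, and its probe was still well above background there. The ratios were 2.56, -0.25 and -0.86, a mean of 0.48 ± 1.82 (SD, n = 3, limma adjusted p = 0.870). The authors' deposited values for that probe, turned to the same direction, were 2.71, -0.19 and -0.87. By the gap between array 1 and the mean of the other arrays, 3.12, Prim2 stood at position 37 of 18456 genes, and the member next in order, Tyms, at 381.

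Prim1, the small primase subunit that makes the RNA primer, did not share that size: it was at 0.81, -0.14 and -1.05. The polymerase alpha subunits that sit with primase were at 0.25, 0.34 and -0.82 (Pola1, the catalytic subunit) and 0.56, -0.23 and 0.56 (Pola2, mean 0.30 ± 0.46, SD, n = 3, limma adjusted p = 0.741). Pola1 and Pola2, each read by 1 probe, thus lay on opposite sides of 0 on arrays 2 and 3. Pole, which copies the leading strand, was at 0.41, -0.07 and -0.85 (mean -0.17 ± 0.63, limma adjusted p = 0.883), and its partner Pole2 at 0.82, -0.20 and -0.46. Pold1, the catalytic subunit of the lagging strand polymerase, was at 0.38, -0.24 and -0.44. Its other probe was at 0.47, -0.27 and 0.16, on the other side of 0 on array 3.

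Pcna, the sliding clamp, had the lowest mean of the 35 members. Its probe was printed in 10 spots per array, whose spread measures spotting and reading error only, not the error between samples or probes. The ratios were -0.08 ± 0.03, -0.74 ± 0.03 and -0.83 ± 0.03 (SD over 10 spots), and all 10 spots were below 0 on each array. Corrected signals on arrays 1 to 3 were 17236, 14658 and 12556 in the channel labelled SA1-null and 18166, 24472 and 22363 in the channel labelled wild type. These signals compare channels within an array only. On the common scale used below, they were 13879, 15850 and 13994 (label SA1-null) and 14628, 26461 and 24925 (label wild type). The sample labelled wild type was the brighter on each array, by least on array 1. Over the arrays the mean was -0.55 ± 0.41 (SD, n = 3, limma 95% interval -1.09 to -0.01, adjusted p = 0.663), lower in 3 of 3 pairs.

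**Figure D2:**
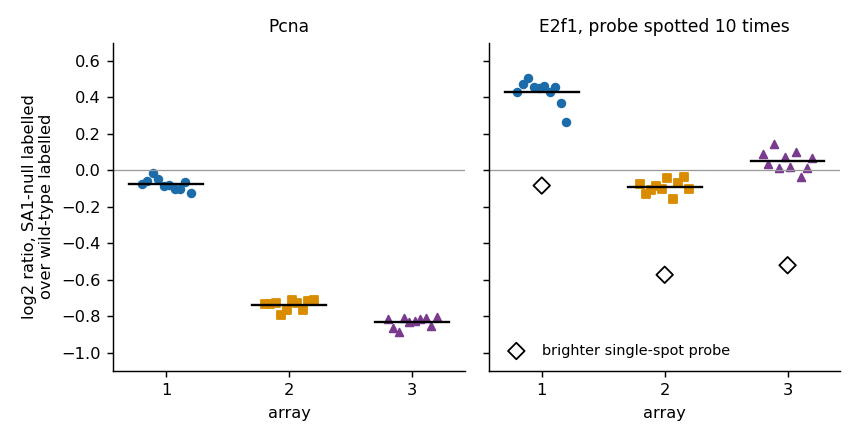
Log2 ratio of every spot of the probes for Pcna (left) and E2f1 (right) that were printed 10 times on each array, with the mean as a bar. Open diamonds are the brighter E2f1 probe, which was printed once. The Pcna spots lie near -0.08, -0.74 and -0.83, and the E2f1 probes lie 0.51, 0.48 and 0.57 apart.

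The other genes that work with the clamp were mostly below 0 in their means. Rfc4 and Rfc5, subunits of the complex that loads the clamp, were at 0.23, -0.02 and -0.96 (mean -0.25 ± 0.63, SD, n = 3, limma adjusted p = 0.824) and at 0.60, 0.11 and -0.33 (mean 0.13 ± 0.46, limma adjusted p = 0.899). Lig1, which seals nicks between fragments, was at 0.05, -0.17 and -0.61 (mean -0.24 ± 0.34, limma adjusted p = 0.749). Fen1, the flap nuclease that trims fragments, was at 0.10, -0.45 and 0.21. Rpa2, a subunit of the single-strand binding protein, had the smallest spread of the group at -0.03, -0.27 and -0.26 (mean -0.19 ± 0.14, limma adjusted p = 0.751). Of the 6 measured members of this role, Pcna included, 5 had a mean below 0, against 10101 of all 18542 genes, and 0 passed.

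In deoxynucleotide supply, Tyms, the thymidylate synthase, was at 1.09, -0.05 and -0.75, and its other probe at 1.07, -0.03 and -0.67, so the probes lay within 0.08 of each other on every array. The ribonucleotide reductase subunits were closer to 0 than Tyms on arrays 1 and 3 and farther from it on array 2. Rrm1 was at 0.17, -0.27 and -0.13, and Rrm2, the subunit made mainly in S phase, at 0.22, -0.21 and 0.08.

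Among the factors that copy chromatin, the chromatin assembly subunits Chaf1a (0.36, -0.34 and 0.11) and Chaf1b (0.83, -0.04 and -1.05) differed on array 3. Each of these subunits was read by 1 probe. Uhrf1, which recruits the maintenance DNA methyltransferase, was at 0.76, -0.06 and -0.35 (mean 0.12 ± 0.57, SD, n = 3, limma adjusted p = 0.922), and its other probe at 0.55, -0.14 and -0.40.

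The cyclins of S phase entry were among the members with the widest change between arrays. Ccne1 was at 0.81, -0.15 and -0.36 (mean 0.10 ± 0.62, SD, n = 3, limma adjusted p = 0.938) and Ccne2 at 1.12, -0.16 and -0.52 (mean 0.14 ± 0.86, limma adjusted p = 0.932). Second probes gave 0.73, -0.20 and -0.05 for Ccne1, and 1.13, -0.33 and -0.35 for Ccne2. E2f1, a transcription factor of the S phase programme, was at -0.08, -0.57 and -0.52 at its brightest probe (mean -0.39 ± 0.27, limma adjusted p = 0.699). A dimmer E2f1 probe, printed in 10 spots, was at 0.43 ± 0.07, -0.09 ± 0.04 and 0.05 ± 0.05 (SD over 10 spots). The E2f1 probes thus lay 0.51, 0.48 and 0.57 apart, and the direction on arrays 1 and 3 depends on the probe.

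Probe disagreement was larger on array 3 over the whole array. For the 4009 genes with several kept probes, the median range between probes was 0.27, 0.14 and 0.38 on arrays 1 to 3, and for the 7 such members it was 0.08, 0.08 and 0.30. The spread between spots of a probe did not differ in this way: the median SD over 172 probes with 10 spots was 0.05, 0.06 and 0.05. Among these members, the range between probes on array 3 went from 0.05 (Uhrf1) to 1.09 (Cdc6). Spots of a single probe do not show such differences, and what lies behind them was not tested.

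Single-channel levels, set on a common scale across arrays, describe each member in each of the 6 samples. The sample labelled wild type on array 1 had the lowest level of the 6 samples for 30 of 35 members, against 29.2% of all genes. It was below both other samples labelled wild type for all 35 members, against 49.1% of all genes, by a median of 2.58-fold, against 1.04-fold for all genes. Past 2-fold lower there were 26 members (74.3%), against 12.8% of all genes. The sample labelled SA1-null on array 1 was below both other samples of its label for 30 of 35 members, against 46.5% of all genes, by a median of 1.65-fold. Both samples of array 1 were thus below all 4 samples of arrays 2 and 3 for 29 of 35 members, against 31.6% of all genes. Array 1 also differs in slide, software version and detection of Y chromosome genes, so the samples' level and these differences cannot be told apart.

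Ccne2 and Ccne1 had the widest such gaps after Prim2. Signals of Ccne2 on the common scale were 339, 1001 and 1035 in the samples labelled SA1-null and 156, 1118 and 1489 in those labelled wild type. The wild-type-labelled sample of array 1 was 8.25-fold below the other samples of its label for Ccne2, 6.04-fold for Ccne1, 5.64-fold for Prim1 and 15.4-fold for Prim2. At the other end, Lig1 was 1.14-fold, Gins4 1.26-fold and Pola1 1.31-fold lower there. Groups by label overlapped for every member on this scale. Free of overlap and higher in the label SA1-null were 0 of 35 members, against 2.81% of all genes, and lower 0 of 35, against 6.03%.

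On arrays 2 and 3 the sample labelled wild type was the higher of its pair for most members. The samples labelled wild type held the highest level for 7 members on array 2 and 18 on array 3, and the sample labelled SA1-null on array 3 for 9. Those 9 were Mcm2, Mcm3, Mcm5, Mcm7, Fen1, Cdc45, Pola2, Chaf1a and Rrm2. Medians over the members, relative to each gene's mean over the 6 samples, were -0.46, 0.29 and 0.07 for the samples labelled SA1-null and -0.89, 0.46 and 0.50 for those labelled wild type. Every role followed this order on array 1, from -0.48 (clamp, loader and fragment joining) to -1.78 (S phase entry) in the sample labelled wild type.

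**Figure D3:**
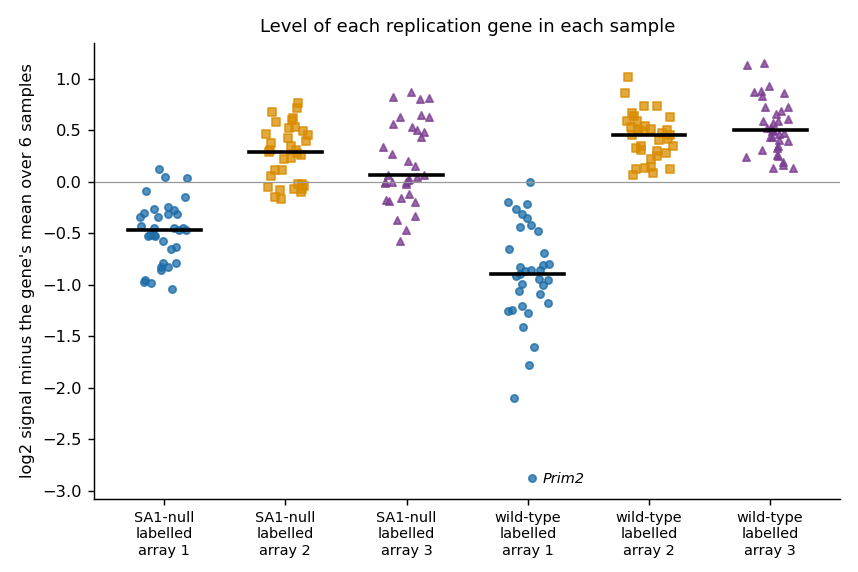
Level of each of the 35 replication genes in each of the 6 samples, as log2 signal minus that gene's mean over the samples, with the median as a black bar. The samples of array 1 have medians of -0.46 and -0.89, and those of arrays 2 and 3 lie between 0.07 and 0.50.

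Other replication genes, from a list of 39 such as origin, clamp loader and checkpoint mediator genes, had medians of the same sign as the members, and the difference between the lists was not tested. Of the 38 tested, 0 passed in either direction (limma, 0 also at an unadjusted p under 0.05), 25 were above 0 on array 1 and 28 below 0 on array 2, with medians of 0.17, -0.12 and -0.10. Those with the smallest p were Gmnn, the inhibitor of Cdt1 (-0.26, -0.34 and -1.28), Orc2 (-0.49, -0.08 and -0.57) and Chtf8, a clamp loader subunit (0.91, -0.30 and 0.96). Of 16 tested nucleotide and histone supply genes 0 passed (0 at an unadjusted p under 0.05), with medians of 0.14, -0.14 and -0.34. Cad, which starts pyrimidine synthesis, was at 0.96, 0.05 and 0.38, and Hat1, a histone acetyltransferase, at -0.14, -0.18 and -0.61. Of 31 S phase control and E2F genes 0 passed (limma, 3 at an unadjusted p under 0.05), with medians of -0.09, -0.09 and -0.02. E2f2, another activating E2F, was at -0.96, -0.79 and -1.40 (mean -1.05 ± 0.32, SD, n = 3, limma adjusted p = 0.219). The E2F partners Tfdp2 and Tfdp1 had means of -0.45 ± 0.15 (limma adjusted p = 0.631) and 0.59 ± 0.41 (limma adjusted p = 0.648).

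Mitotic genes, which are transcribed later in the cycle, had medians of the same sign as the replication genes on each array. Of 36 tested, 35 were above 0 on array 1, 32 below 0 on array 2 and 24 below 0 on array 3, with medians of 0.60, -0.16 and -0.39. In limma 0 passed (0 at an unadjusted p under 0.05). Those with the smallest p were Hmmr (mean 0.56 ± 0.55), Incenp (-0.55 ± 0.58) and Racgap1 (0.36 ± 0.29). The difference between the lists was not tested. In the 6 samples their medians were -0.21, 0.15 and 0.05 for the label SA1-null and -0.74, 0.30 and 0.40 for the label wild type.

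The ratios of CDK inhibitors, which hold cells before S phase, were mixed. Of 7 tested, 5 were below 0 on array 1, against 53.6% of all genes, and 3 and 2 were below 0 on arrays 2 and 3, with medians of -0.28, 0.05 and 0.27, and 0 passed (limma, 0 at an unadjusted p under 0.05). Those with the smallest p were Cdkn2d (-0.03, -0.01 and -0.79), Cdkn1c (-0.28, 0.36 and 0.84) and Cdkn2c (0.09, -0.32 and -0.30). Cdkn1a, which encodes p21, was at -1.19, 0.19 and 1.13, with signals of 8602.5, 10865 and 20331 in the samples labelled SA1-null and 19572, 9513 and 9294 in those labelled wild type. Cdkn2a, which encodes p16 and p19 in overlapping frames, had signals of 1570, 411.5 and 325.7 (label SA1-null) and 2435, 445.5 and 265.3 (label wild type), higher in both samples of array 1 than in the other 4. Cdkn1a and Cdkn2a were chosen after their values were seen. Cdkn1b, Cdkn1c, Cdkn2b, Cdkn2c and Cdkn2d were also higher in both samples of array 1 than in the other 4, and Cdkn1a was not. Over all genes, 4029 of 18456 were. Medians of the 7 inhibitors, relative to each gene's mean, were 0.77, -0.23 and -0.44 (label SA1-null) and 0.93, -0.36 and -0.45 (label wild type). Macrophage and blood cell markers were highest in the same sample labelled wild type on array 1, at a median of 3.07 above their gene means, against 0.57 and 0.47 in the other samples of that label. Epithelial markers (6 tested of 8) were lowest in both samples of array 1, at medians of -0.82 (label SA1-null) and -0.81 (label wild type), as were endothelial markers (3 tested of 8), at -0.81 and -1.20. Fibroblast markers were highest in the sample labelled SA1-null on array 1, at 0.90. On arrays 1 to 3 the median ratios were 0.29, -0.43 and -0.49 for epithelial markers and 0.10, -0.32 and -0.27 for endothelial markers. By gene, 2 of 6 epithelial and 1 of 3 endothelial markers were above 0 on array 1 and below 0 on arrays 2 and 3. That order of signs was found in 18 of 35 members and in 10.6% of all genes. The part of these markers in the values of the replication genes was not tested.

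**Figure D4:**
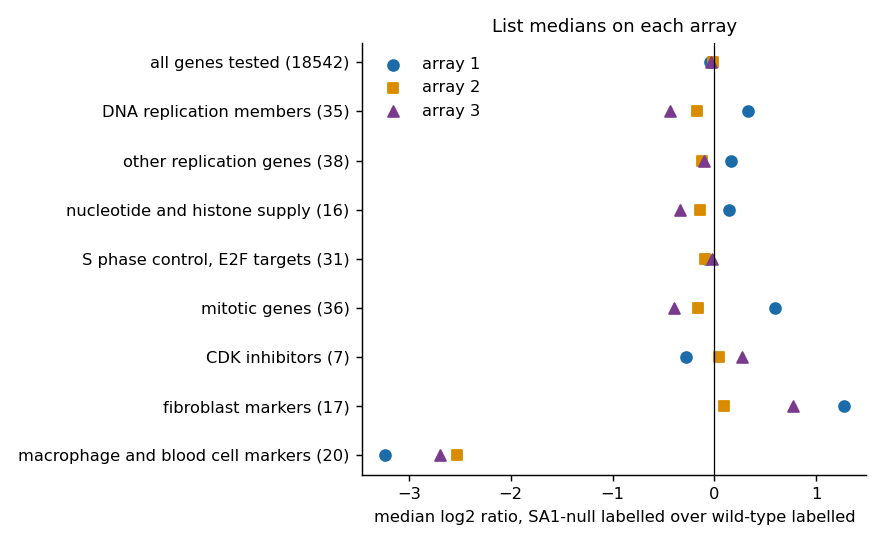
Median log2 ratio of each gene list on array 1 (circles), array 2 (squares) and array 3 (triangles), with the number of genes tested in parentheses. The replication and mitotic lists are above 0 on array 1 and below 0 on arrays 2 and 3, and the 7 CDK inhibitors have medians of -0.28, 0.05 and 0.27.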

How the data were processed

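Total RNA (1 µg per sample) was labelled and hybridised as 3 pairs, per the labels' protocols. The scanner files come from Agilent Feature Extraction 10.1.1.1 (array 1) and 10.7.3.1 (arrays 2 and 3) and hold deposited spot and background intensity values, processed intensity values, and, per the file headers, a log10 ratio (Cy5/Cy3). The authors' deposited table of log2 values was made with limma, per the submitters' processing notes, and correlated with Cy5 over Cy3 here at 0.985, 0.982 and 0.997. Its medians were -0.02, -0.02 and -0.01, and its centring stays unknown.

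Median signals were corrected by normexp (offset 50), normalized by loess within arrays, and turned to log2 Cy3 over Cy5 (limma 3.58.1, R 4.3.3). Control spots and flagged spots (116, 125 and 207) were left out, and 0 spots were saturated. Probes well above background in the same channel on all 3 arrays were kept (24113 of 41174), spots of a probe averaged, and the brightest probe taken per gene. Names came from RefSeq transcripts of GRCm38.p6 (23374 probes, 16535 genes), and 6481 of the tested genes kept an accession. The mean was tested against 0 with lmFit and eBayes, adjusted by Benjamini-Hochberg over all genes at 0.05. The same fit was also run on simulated data, with each gene's spread taken from these arrays. Levels across arrays used Aquantile after loess, with signals in arbitrary units. Precision is limited by the number of arrays, and p-values measure only the spread between these pairs.

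The members and lists were chosen with earlier results of these data known. Fitted statistics are given for the 8 members with the highest and the 8 with the lowest means, and from other lists for the genes of smallest p. A gene that this rule names is not reported here. Endothelial, epithelial and erythroid markers, also listed, had median means of -0.42 (3 tested), -0.02 (6) and 0.05 (3), and 0 of them passed in limma (1, 2 and 0 at an unadjusted p under 0.05). The erythroid medians by array were 0.12, 0.11 and -0.05. Figures were drawn with matplotlib 3.10.9.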

Additional observations from a re-analysis of the deposited data

How the results depend on the processing

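No member passed under any alternative except Prim2 with the slide as a fixed term (1.00, limma adjusted p = 0.0217, 1 member called), where the spread comes from 2 arrays only. Over all genes, 58 were called in the main analysis, 119 without background subtraction, 266 with a normexp offset of 0, 327 with Agilent's processed signals, 37 with median centring, 161 with scale normalization, 0 with no filter on dim probes (1990 at an unadjusted p under 0.05 in limma), 97 with probes above background in both channels, 143 with a trended robust variance, 127 with array weights, 1779 with the slide as a term and 132 at an adjusted p threshold of 0.1. Leaving out replicates 1, 2 and 3 in turn gave 286, 0 and 0 called genes (1292 and 742 at an unadjusted p under 0.05 in limma without replicates 2 and 3). The members' median was -0.44 with median centring, where all genes were at -0.30, and their medians on arrays 1 and 2 were -0.34 and -0.68. It was -0.25 without replicate 1, 0.09 without replicate 2 and 0.12 without replicate 3, with 32, 15 and 10 members below 0. The sign of the mean turned in 14 of the 35 members with median centring, 11 with array weights and 7 with the slide as a term, and in 14, 3 and 14 without replicates 1, 2 and 3. Among the members given with fitted statistics, median centring turned Ccne1 (-0.43), Ccne2 (-0.13), Mcm7 (-0.44), Rfc5 (-0.32) and Uhrf1 (-0.28) below 0, and array weights turned Ccne1 (-0.037) and Ccne2 (-0.037). Leaving out each replicate in turn gave ranges of -0.251 to 0.332 for Ccne1, -0.342 to 0.478 for Ccne2, -0.0088 to 0.229 for Mcm7, -0.554 to 1.157 for Prim2, -0.109 to 0.354 for Rfc5 and -0.204 to 0.349 for Uhrf1, each below 0 without replicate 1. The ranges were -0.414 to 0.149 for Cdt1, -0.459 to 0.019 for Mcm10, -0.461 to 0.167 for Pole and -0.490 to 0.106 for Rfc4, each above 0 without replicate 3. Of the other comparisons of a named member with its main value, 238 kept their direction and side of the threshold. The cause of these changes was not tested. The count of members lowest in the wild-type-labelled sample of array 1 was 30, and 32 to 33 under 3 other ways to set levels, which were chosen after seeing the data. The labels pair the samples within arrays, so every ratio is already a paired value.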

Other observations

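Genes beside Prim2 on chromosome 1, in the order of the RefSeq table of GRCm38.p6, did not share its ratio of 2.56 on array 1. The nearest measured gene on one side, Rab23, was at 0.82, 0.18 and -0.83 on arrays 1 to 3, and the next, Bag2, at 0.57, -0.15 and 0.62. On the other side, Khdrbs2 was at 0.36, 0.00 and 0.09.

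Of the 7 CDK inhibitors, Cdkn2c, an inhibitor of Cdk4 and Cdk6, had signals of 4747 and 4454 in the samples of array 1 and between 1090 and 1525 in the other 4, with ratios of 0.09, -0.32 and -0.30. Array 1 also differed from the others in slide, software version and detection of Y chromosome genes.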
